A study of Oryza sativa with 18 samples.

Results

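Rice builds the outer wall of its pollen, the exine, from sporopollenin, and 9 genes of this process were followed here through panicle development. They were chosen by gene ID from roles known in rice, with earlier results of these data already known. They include the acyl-CoA synthetase ACOS12, the cytochrome P450 enzymes CYP704B2 and CYP703A3, the fatty acyl reductase DPW and the polyketide synthase PKS1. The others are the reductase TKPR1, the transporters ABCG15 and ABCG26, and the lipid transfer protein C6. Together they are 9 of 38663 genes in the deposited expression table, and all 9 were found there. The samples were panicles of the rice cultivar Nipponbare at the booting stage, before the panicle leaves its sheath, flowering panicles, and flag leaves taken at the flowering stage. No treatment or mutant was compared, and all plants were field grown. Panicles were harvested on 3 August (booting) and 14 August (flowering), each at about 3 PM, so stage and collection day cannot be told apart. For the flag leaves the labels name no day. Each of the 3 groups had 3 input RNA libraries and 3 libraries of RNA fragments enriched with an antibody against N6-methyladenosine (m6A), a methyl mark on mRNA.

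Sporopollenin is a tough polymer of fatty acid and phenolic units. Its precursors are made in the tapetum, the cell layer that lines the anther chamber and feeds the young microspores, and they are then exported and laid down on the microspore surface. The tapetum is active around and after meiosis and breaks down before the pollen is ripe, so a whole panicle holds tapetum for only part of its life. In the pathway as known from rice and Arabidopsis, fatty acids are hydroxylated by P450 enzymes and activated to CoA esters by ACOS-type enzymes. PKS-type enzymes extend these to alpha-pyrones, and TKPR-type enzymes reduce them. DPW-type enzymes make fatty alcohols in plastids. ABCG transporters and lipid transfer proteins carry the lipids out of the tapetum.

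Levels are FPKM of the input libraries (fragments scaled to transcript length and to the mapped fragments of the library), which are corrected for length and can be set side by side between genes. The FPKM of a library summed to 504583 to 569592. The number of reads behind a value is not known from the files, so no counting interval is given. Changes are log2 differences of FPKM + 1 from limma, fitted on 23355 genes with at least 1 FPKM in 3 or more input libraries. They understate the change of genes that are near 0 in one group. Calls required an adjusted p under 0.05 (Benjamini-Hochberg, all tested genes) together with a log2 change of 1 or more in either direction. The labels do not state that replicate libraries came from separate plants, so p-values measure only the spread between these libraries.

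The tissues matched their labels. Summed over 6 MADS factors of floral organs, the level was 997 to 1037 FPKM in booting libraries and 1607 to 1826 FPKM in flowering libraries, against 16.04 to 19.3 FPKM in leaves. In leaves, 4 of those 6 factors stayed under 1 FPKM in every library. Across 4 photosynthesis genes the sum was 21480 to 21883 FPKM in leaves, 3253 to 3828 at flowering and 532 to 749 at booting. Tapetum was represented by 8 regulators known from it, which summed to 119 to 153 FPKM at booting, 22.5 to 23.6 FPKM at flowering and 3.33 to 4.26 FPKM in leaves, where 7 of the 8 were under 1 FPKM in every library and 2 were listed at 0 in all 3.

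One library stood apart for these genes. In booting replicate 2, 7 of the 9 genes had their lowest booting value, and 6 of them were at or below 0.5 of the mean of replicates 1 and 3. The ratio ran from 0.448 for TKPR1 to 1.02 for ABCG26, with a median of 0.468, and ABCG15 was just above 0.5. Among 6255 genes with a booting mean of at least 20 FPKM, 35 genes (0.560%) were as low in replicate 2, and 6 of these 35 were among the 9 genes. By the same measure replicate 1 had 14 low genes (0.224%), none of them among the 9, and replicate 3 had 38 (0.608%), 1 of them C6. In replicate 2 the ratio was 0.540 to 1.21 (median 0.745) for 7 tapetum regulators, 0.511 to 10.1 (median 0.828) for 8 other tapetal proteins and 0.452 to 1.31 (median 0.694) for 8 further genes of wall synthesis. The 6 meiosis genes had ratios of 0.933 to 1.06 and the 6 floral MADS factors 0.897 to 0.999. Booting replicate 1 had the highest booting value of all 9 genes. The log2 changes and counts of the 9 genes that rest on the booting libraries are therefore given with and without replicate 2.

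**Figure D1:**
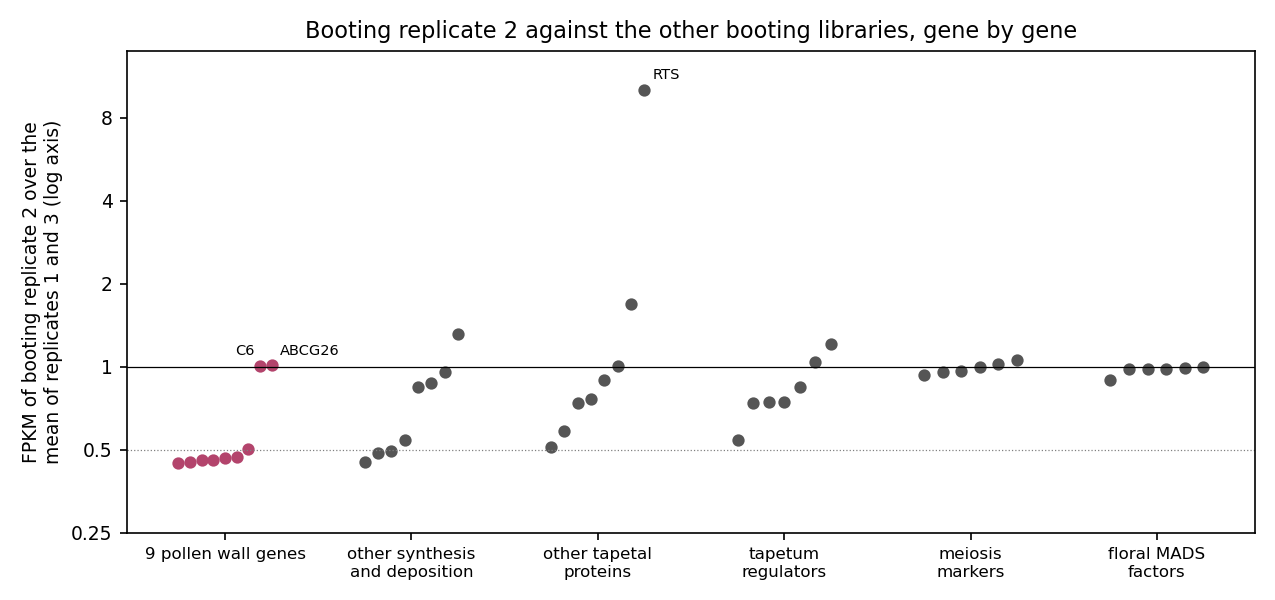
FPKM of booting replicate 2 divided by the mean of booting replicates 1 and 3, on a log axis, with 1 point per gene of each list that passed the filter. Of the 9 pollen wall genes C6 and ABCG26 lie near 1 and the other 7 near 0.5. The synthesis, tapetal and regulator genes spread from 0.452 to 10.1, while the meiosis and floral genes lie between 0.897 and 1.06.

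All 9 genes were higher in booting panicles than in flowering panicles, with no overlap between the 3 libraries of each stage. The share of all tested genes without such overlap is not given here, so this describes the 9 only. The log2 change from booting to flowering ran from -7.79 for PKS1 to -1.91 for ABCG26, with a median of -4.71 against -0.09 over all tested genes. This order depends on the 1 added to each FPKM. By the ratio of booting to flowering means, ABCG15 (765) and ACOS12 (626) lay above PKS1 (505). With a pseudocount of 0.1 the log2 change was -7.60 for ABCG15 and -8.74 for PKS1. All 9 were called lower at flowering, beside 15.3% of all tested genes. This count is a description, since 5 of the 9 (ACOS12, CYP704B2, CYP703A3, PKS1 and ABCG15) passed the filter on low values through their booting libraries. Without booting replicate 2 the count was again 9 of 9, and the largest change was -8.16 (PKS1). In a panicle as a whole, fewer cells of a type and less RNA per cell cannot be told apart.

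Other cell types of the panicle moved between the same stages. Summed over 5 genes of mature pollen, the level was 8.99 to 10.3 FPKM at booting and 3107 to 4467 FPKM at flowering. All 5 were called higher, beside 4226 of 23355 tested genes. This count is a description, since MADS62, MADS63 and MADS68 passed the filter on low values through their flowering libraries. The 6 meiosis genes summed to 77.7 to 79.8 FPKM at booting and 23.5 to 28.2 FPKM at flowering. Of them 4 of 6 were called lower, beside 15.3% of all tested genes. That is also a description, since DMC1A, PAIR3 and ZEP1 passed the filter through their booting libraries. Of the photosynthesis genes 3 of 4 were called higher, and 4 of 4 without booting replicate 2. The remaining gene, CAB2R, rose by 0.997 on the log2 scale with all libraries, just under the cut of 1. The part of these shifts in the results on the 9 genes was not tested.

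**Figure D2:**
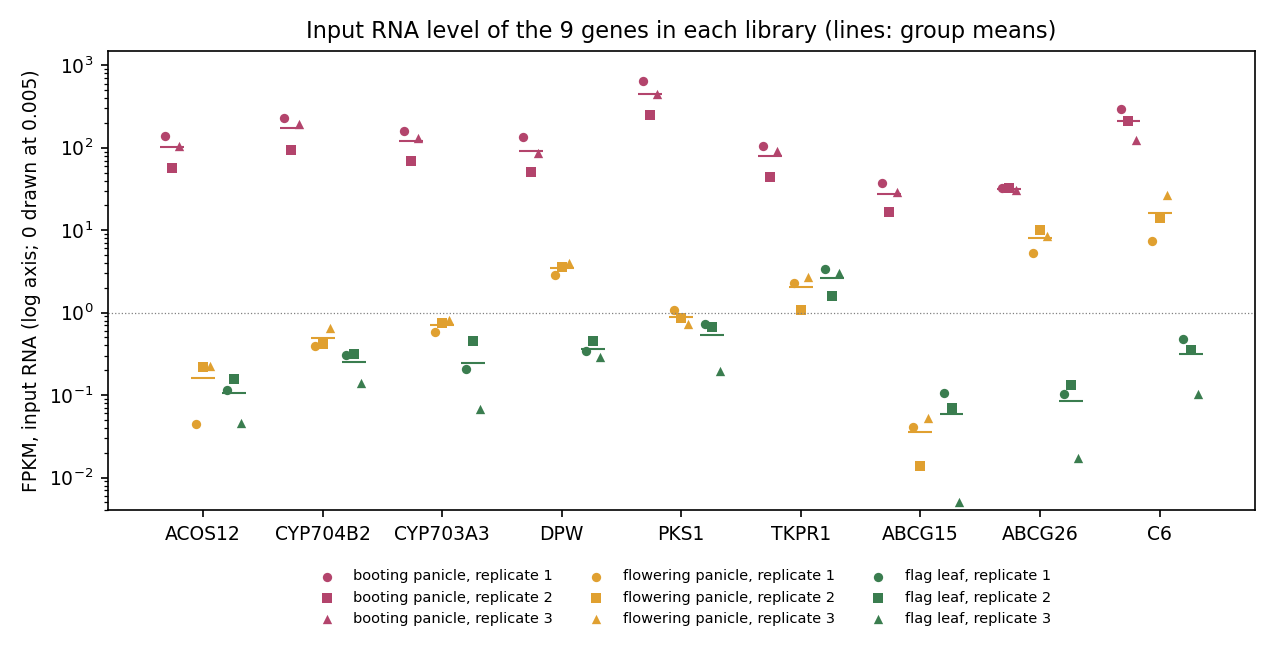
FPKM of the 9 genes in each of the 9 input libraries on a log axis; colours mark the group, symbols the replicate, short lines the group means, and the dotted line 1 FPKM. Each gene's 3 booting points lie above all its other points, and C6, ABCG26 and DPW keep flowering levels above 1 FPKM that their leaf levels do not reach.

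ACOS12 (LOC_Os04g24530, chromosome 4, 14072617 to 14074737, minus strand; build not given in the sources used here, as for all coordinates that follow) activates fatty acids as CoA esters. The table describes it as a 4-coumarate-CoA ligase-like protein. It measured 141, 57.5 and 105 FPKM in booting replicates 1, 2 and 3, then 0.0443, 0.216 and 0.224 FPKM at flowering and 0.115, 0.155 and 0.0458 FPKM in leaves. Flowering and leaf libraries overlapped, and both lay below every booting library. The log2 change from booting to flowering was -6.37 (SE 0.26, limma adjusted p 9.23e-09), or -6.73 without booting replicate 2.

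The P450 enzymes hydroxylate fatty acids on the way to sporopollenin. CYP704B2 (LOC_Os03g07250, chromosome 3, 3701751 to 3704082, minus strand), an omega-hydroxylase, measured 228, 95.2 and 193 FPKM in the booting libraries. At flowering it measured 0.399, 0.420 and 0.643 FPKM, and in leaves 0.307, 0.311 and 0.139 FPKM. Its booting mean was 353 times its flowering mean, with a log2 change of FPKM + 1 of -6.77 (SE 0.26, limma adjusted p 7.05e-09), or -7.15 without booting replicate 2. CYP703A3 (LOC_Os08g03682, chromosome 8, 1752707 to 1755653, plus strand), an in-chain hydroxylase of lauric acid, followed the same course at a lower level. It measured 160, 68.4 and 130 FPKM at booting, 0.581, 0.751 and 0.811 FPKM at flowering and 0.209, 0.459 and 0.0682 FPKM in leaves. Its change at flowering was -6.05 on the log2 scale (SE 0.26, limma adjusted p 1.45e-08), or -6.41 without booting replicate 2. For both enzymes the flowering libraries were low but each lay above every leaf library.

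DPW (LOC_Os03g07140, chromosome 3, 3653709 to 3657820, plus strand) reduces fatty acyl groups to fatty alcohols in plastids and is needed for the anther cuticle as well as the exine. It measured 135, 50.8 and 86.7 FPKM at booting. Unlike the genes above it stayed over 1 FPKM at flowering, with 2.87, 3.61 and 4.03 FPKM, against 0.344, 0.457 and 0.287 FPKM in leaves. The 3 groups did not overlap. From booting to flowering the log2 change was -4.25 (SE 0.28, limma adjusted p 2.91e-07), or -4.61 without booting replicate 2.

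PKS1 (LOC_Os10g34360, chromosome 10, 18316325 to 18318781, plus strand) condenses the activated fatty acids into alpha-pyrones. Its mean of 448 ± 199 FPKM (SD, n = 3) at booting was the highest of the 9. The booting libraries measured 648, 250 and 446 FPKM, the flowering libraries 1.07, 0.851 and 0.738 FPKM and the leaf libraries 0.721, 0.679 and 0.196 FPKM. Its flowering values lay only just above its leaf values. At flowering the log2 change was -7.79 (SE 0.29, limma adjusted p 5.11e-09), and without booting replicate 2 it was -8.16.

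TKPR1 (LOC_Os09g32020, chromosome 9, 19114990 to 19118017, minus strand) stands in the choice of genes as a tetraketide alpha-pyrone reductase, the enzyme type that reduces the product of PKS1. The table does not describe this ID as such: it calls it a hypothetical protein and annotates it with terms of ubiquitin-dependent protein breakdown. The values are therefore those of the ID. They were 104, 44.0 and 92.2 FPKM at booting, 2.32, 1.07 and 2.74 FPKM at flowering and 3.39, 1.58 and 3.02 FPKM in leaves. This was the only one of the 9 genes above 1 FPKM in every leaf library, and its flowering and leaf libraries overlapped. The log2 change at flowering was -4.69 (SE 0.34, limma adjusted p 6.37e-07), or -5.07 without booting replicate 2.

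The transporters of the G family of ABC proteins differed in course. ABCG15 (LOC_Os06g40550, chromosome 6, 24175745 to 24181963, plus strand), needed for export of exine precursors, measured 37.1, 16.6 and 28.9 FPKM at booting. It was close to 0 elsewhere, at 0.0412, 0.0137 and 0.0531 FPKM at flowering and 0.106 and 0.0698 FPKM in leaf replicates 1 and 2, and was listed at 0 in leaf replicate 3. Its log2 change at flowering was -4.71 (SE 0.22, limma adjusted p 2.83e-08), or -5.03 without booting replicate 2. ABCG26 (LOC_Os10g35180, chromosome 10, 18784685 to 18791044, plus strand), which takes part in lipid export for the anther cuticle and exine, was the steadiest of the 9 between booting libraries, with 32.1, 32.1 and 31.1 FPKM. It kept 5.30, 10.1 and 8.61 FPKM at flowering, against 0.104, 0.131 and 0.0171 FPKM in leaves. The booting mean of ABCG26 was 3.98 times its flowering mean, and its log2 change of -1.91 (SE 0.17, limma adjusted p 3.51e-06) was the smallest of the 9. It was -1.90 without booting replicate 2.

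C6 (LOC_Os11g37280, chromosome 11, 22016848 to 22018539, plus strand), a lipid transfer protein of the tapetum that is also found on the anther wall surfaces, measured 296, 213 and 125 FPKM at booting. At flowering it measured 7.45, 14.2 and 27.1 FPKM and in leaves 0.486, 0.349 and 0.102 FPKM. It had the highest flowering level of the 9 and spread widely there, with the highest library 3.63 times the lowest. Among booting libraries its lowest value was in replicate 3, not replicate 2. Its log2 change at flowering was -3.71 (SE 0.41, limma adjusted p 1.49e-05), or -3.66 without booting replicate 2.

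Flag leaves were the low reference for these genes. All 9 were called higher in booting panicles than in leaves, beside 36.4% of all tested genes, with log2 changes from 4.41 for TKPR1 to 8.11 for PKS1 and a median of 6.44 against 0.51 over all tested genes. Here too 5 of the 9 had passed the filter on low values through their booting libraries, so the count is a description. No booting library overlapped a leaf library for any of the 9, again with no share over all tested genes given beside it. In leaves 8 of the 9 stayed under 1 FPKM in every library, and leaf replicate 3 was the lowest leaf library for 8 of the 9. That library was also the lowest in leaves for the floral factors MADS1, MADS3, MADS6, MADS7 and MADS8, but not for MADS16. Of all genes called in this comparison, 8492 were higher and 4130 lower in booting panicles, and with quantile normalization 5751 were higher and 5621 lower; that scaling brought the median of all genes to 0.00 and left the 9 calls in place. Without booting replicate 2 the count was 9 of 9, with changes from 4.79 to 8.48.

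Flowering panicles and leaves separated the 9 genes. C6, ABCG26 and DPW were called higher at flowering than in leaves, at log2 changes of 3.56 (SE 0.41, limma adjusted p 1.62e-05), 3.01 (SE 0.17, adjusted p 7.79e-08) and 1.72 (SE 0.28, adjusted p 0.000217). That is 3 of 9, beside 31% of all tested genes called higher. The call for DPW was lost with a pseudocount of 5 (0.66) and with quantile normalization (0.79). The comparisons with the leaf share its 3 libraries, so their results are not independent of each other.

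For the other 6 genes the test found no call between flowering panicles and leaves. The 95% interval of the log2 difference was -0.51 to 0.65 for ACOS12, -0.34 to 0.84 for CYP704B2, -0.12 to 1.06 for CYP703A3, -0.33 to 0.96 for PKS1, -1.04 to 0.49 for TKPR1 and -0.53 to 0.47 for ABCG15. The values are compatible with differences within those bounds on this scale, and a log2 change under 1 could not be called by the rule used. Of these genes 5 were at or near 1 FPKM or less in both groups. CYP703A3 was called higher at flowering with a pseudocount of 0.1 (1.39, limma adjusted p 0.0127), and TKPR1 lower with quantile normalization (-1.09, limma adjusted p 0.0177). Under that normalization the differences of ACOS12, CYP704B2, CYP703A3 and PKS1 were below 0, from -0.67 to -0.49, without a call. It changed the split of all calls from 7239 higher and 2691 lower to 4210 higher and 4731 lower, with the median of all genes going from 0.44 to -0.12.

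**Figure D3:**
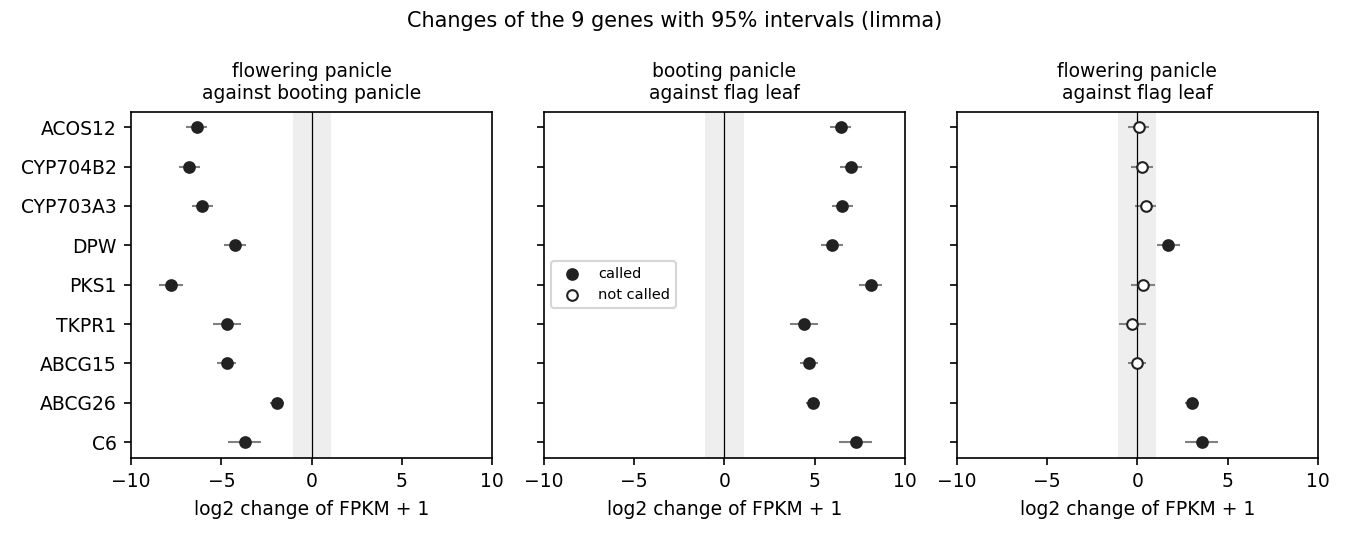
Log2 change of FPKM + 1 of the 9 genes in the 3 comparisons with 95% intervals from limma; filled points are called, open points are not, and grey marks changes under 1. In the flowering against leaf panel only C6, ABCG26 and DPW are called, at 3.56, 3.01 and 1.72.

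The 9 courses were compared by the root mean square difference of log2(FPKM + 1) over the 9 input libraries, each gene centred on its own mean. Over the 36 pairs this ran from 0.191 for CYP703A3 and ACOS12 to 2.44 for PKS1 and ABCG26. ACOS12, CYP703A3 and CYP704B2 lay within 0.313 of each other, and TKPR1 and ABCG15 were 0.315 apart. ABCG26 and C6 had no close partner, since the nearest of the other 8 was DPW for both, at 1.02 and 0.914. Without booting replicate 2 the closest and the farthest pair were the same, at 0.201 and 2.45. These values describe 9 libraries of 3 groups.

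Outside the 9, the 3 genes of at least 20 FPKM in a group with the smallest such difference were looked up for each. Nearest to ACOS12 was LOC_Os07g46210, described as an aspartate and glycine-rich protein, at 0.0696, then LOC_Os02g01980, a GDSL esterase/lipase, at 0.146, and LOC_Os01g03670, described as tetraketide alpha-pyrone reductase 2 (TKPR2), at 0.189. CYP703A3 had those genes in the order TKPR2 (0.141), LOC_Os02g01980 (0.168) and LOC_Os07g46210 (0.182). For CYP704B2 they were LOC_Os08g40440 at 0.103, which carries an exine term in the table, LOC_Os03g56890, described as a U1 ribonucleoprotein, at 0.157, and LOC_Os01g49650 at 0.229. ABCG15 was closest to LOC_Os01g14880, an unknown protein, at 0.119, to LOC_Os02g45530, described as HOTHEAD, at 0.130, and to LOC_Os08g27210 at 0.132. TKPR1 had LOC_Os01g14880 at 0.335, LOC_Os01g39710 at 0.338 and LOC_Os02g45530 at 0.349.

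The remaining genes had other neighbours. PKS1 was nearest to the proline-rich proteins LOC_Os03g14130 (0.282) and LOC_Os10g05930 (0.322) and to LOC_Os04g58120 (0.328). DPW was nearest to LOC_Os05g01810, described as a xylem cysteine proteinase (0.215), LOC_Os01g15830 (0.238) and the proline-rich protein LOC_Os10g05860 (0.299). For ABCG26 the neighbours were LOC_Os03g02290 (0.125), LOC_Os04g08450 (0.130) and the STRUBBELIG-type receptor LOC_Os02g09740 (0.135). C6 had none as close: a beta-galactosidase, LOC_Os03g06940, lay at 0.438, the aquaporin LOC_Os02g13870 at 0.468 and the beta-hexosaminidase LOC_Os01g66700 at 0.477. When booting replicate 2 was left out, 18 of the 27 named places were held by the same genes, and the nearest gene was the same for 5 of the 9; it changed for TKPR1, ABCG15, ABCG26 and C6.

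Further genes of pollen wall synthesis and deposition fell with the 9. Of a list of 9 such genes 8 were in the table and tested. All 8 were called lower at flowering than at booting, with a median of -2.60, beside 15.3% of all tested genes. This count is a description, since PKS2, TKPR2, NP1 and ABCG3 passed the filter on low values through their booting libraries. Without booting replicate 2 the count was again 8 of 8, with a median of -2.67. PKS2 (LOC_Os07g22850), the second polyketide synthase, went from 44.1 ± 15.7 FPKM (SD, n = 3) to 0.0721 ± 0.0244 FPKM, a log2 change of -5.33. TKPR2 (LOC_Os01g03670) went from 111 ± 43.3 to 0.546 ± 0.0291 FPKM, a change of -6.09. WDA1 (LOC_Os10g33250), an enzyme of anther wax and exine, fell less, from 125 ± 15.7 to 57.4 ± 8.16 FPKM (-1.11). CER1 (LOC_Os02g40784), of very-long-chain alkane synthesis, went from 129 ± 21.2 to 25.4 ± 7.22 FPKM (-2.33). In booting replicate 2 the ratios of the 8 ran from 0.452 (TKPR2) to 1.31 (CER1).

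Other proteins of the tapetum were less uniform. Of 9 listed, 8 were tested. At flowering 6 were called lower, beside 15.3% of all tested genes, and 2 were not called, with a median of -3.15. These counts were 6 lower, 1 higher and 1 not called without booting replicate 2, with a median of -3.35. In that fit 4332 of 23355 tested genes were called higher and 3576 lower. The counts of the list are a description, since YY1, C4, AP37 and MTR1 passed the filter on low values through their booting libraries. YY1 (LOC_Os09g35700) and C4 (LOC_Os08g43240), small lipid transfer-like proteins, fell from 264 ± 87.7 and 216 ± 32.0 FPKM (SD, n = 3) to 0.736 ± 0.163 and 0.494 ± 0.201 FPKM. AP25 (LOC_Os03g08790), an aspartic protease of tapetal cell death, went from 47.6 ± 7.92 to 2.69 ± 0.770 FPKM. RTS (LOC_Os01g70440), a tapetum-specific protein, was not called at 0.20 (95% interval -1.63 to 2.02): booting replicates 1 and 3 held 39.0 and 32.6 FPKM, but replicate 2 held 362 FPKM. Without replicate 2 RTS was called higher at flowering, at 1.30 (SE 0.47, limma adjusted p 0.0312). In the library where most of the 9 genes were lowest, RTS was 10.1 times the mean of the other booting libraries. CAP1 (LOC_Os02g04840), the other gene without a call, changed by -0.29.

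Among the tapetum regulators 7 of 8 were tested and 6 were called lower at flowering, beside 15.3% of all tested genes. The median of the 7 was -2.59. Without booting replicate 2 it was -2.73, with again 6 called lower. TDF1 and MYB80 passed the filter on low values through their booting libraries, so this count too is a description. The bHLH factors TDR (LOC_Os02g02820) and EAT1 (LOC_Os04g51070) went from 40.9 ± 6.78 and 39.4 ± 6.36 FPKM (SD, n = 3) to 6.08 ± 1.84 and 4.37 ± 1.43 FPKM. The MYB factor TDF1 (LOC_Os03g18480) went from 22.6 ± 4.93 to 0.0159 ± 0.0275 FPKM, being listed at 0 in flowering replicates 1 and 3. TIP2 (LOC_Os01g18870), a bHLH factor that acts before TDR and EAT1, went from 15.8 ± 2.41 to 1.39 ± 0.341 FPKM. GAMYB (LOC_Os01g59660), which also works in other tissues, was at 8.85 ± 2.77 and 9.46 ± 4.03 FPKM, a difference of 0.06 (95% interval -0.54 to 0.67). Against leaves, 8 of 8 synthesis genes, 7 of 8 tapetal proteins and 7 of 7 regulators were higher at booting, beside 36.4% of all tested genes. The same genes of each list had passed the filter through their booting libraries, so these counts are descriptions as well. At flowering 4 of 8, 3 of 8 and 5 of 7 were higher than in leaves, beside 31% of all tested genes.

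**Figure D4:**
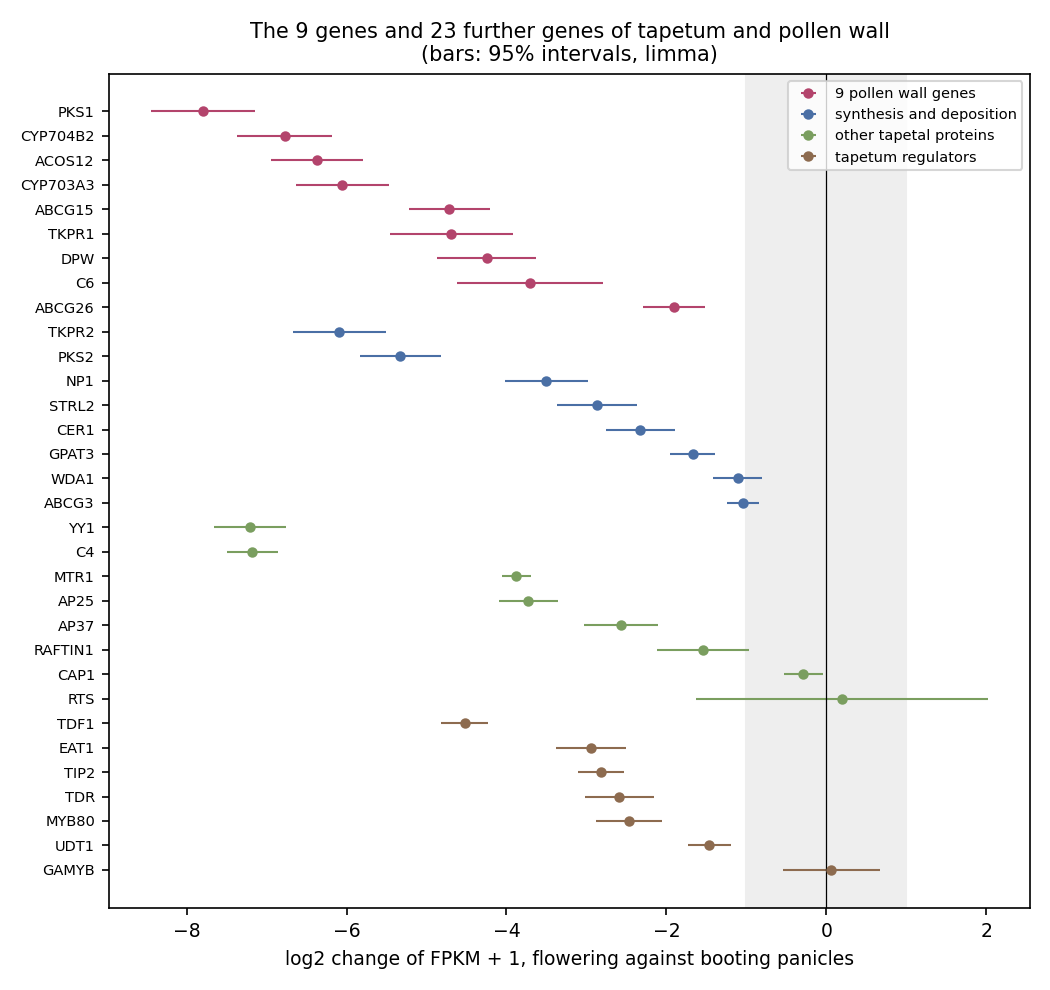
Log2 change of FPKM + 1 from booting to flowering panicles for the 9 genes and 23 further genes of the tapetum and pollen wall, with 95% intervals from limma; grey marks changes under 1. Changes run from -7.79 (PKS1) to 0.20 (RTS), and 3 of the 32 genes, CAP1, RTS and GAMYB, lie inside the grey band.

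The peaks of m6A come from 1 deposited list per group, made of its 3 enriched and 3 input libraries. The lists give no value per replicate, so what follows is a description with no test. Each peak has the authors' fold of enriched over input RNA and the log10 of a p-value. In booting panicles 3 of the 9 genes had a peak, all 9 being at 10 FPKM or more. There 42.5% of all genes in the table had a peak, as did 80.9% of genes at 10 FPKM or more and 72.2% of genes at 100 FPKM or more. In flowering panicles 3 of the 9 had a peak, where 43.1% of all genes and 77.4% of genes at 10 FPKM or more did. C6 was the only one of the 9 at 10 FPKM or more at flowering, and it had no peak. In leaves 2 of the 9 had one, where 43% of all genes and 84.7% of genes at 10 FPKM or more did; none of the 9 was that abundant there.

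No peak was listed in any group for ACOS12, CYP704B2, PKS1, TKPR1 or C6. The booting means of these genes ran from 80.1 FPKM for TKPR1 to 448 FPKM for PKS1. The listed peaks of the other 4 genes numbered 14, of which 12 were in the authors' 3′ UTR class and 2 in their 5′ UTR class. Over a whole list the share in the 3′ UTR class was 78.5 to 79.7%.

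ABCG26 had the most peaks in the booting list, 3, and 2 at flowering. At booting they were a 5′ UTR peak (chromosome 10, 18784895 to 18785195, fold 3.11, log10 p -42.2) and a pair in the 3′ UTR class, one at 18790264 to 18790594 (fold 6.15, log10 p -303) and one that ended at the gene end, 18790834 to 18791044 (fold 5.77, log10 p -12.5). In flowering panicles the first and the second were listed again, at folds of 3.35 and 7.61, while the third was not. At booting 88.3% of the listed peaks had a larger fold than the 5′ UTR peak and 71.0% a larger one than the stronger 3′ UTR peak. At flowering these shares were 83.9% and 53.8%. ABCG15 had 1 peak, at booting, over the last 271 bases of the gene (chromosome 6, 24181693 to 24181963, fold 4.31, log10 p -206).

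CYP703A3 had its peak where its RNA was low. A peak over the last 327 bases of the gene (chromosome 8, 1755327 to 1755653) was listed at flowering with a fold of 5.92 (log10 p -5.61) and in leaves with a fold of 11.2 (log10 p -2.53), at mean levels of 0.714 and 0.245 FPKM. No peak was listed at booting, at 119 FPKM. These log10 p were weak for their lists, in which 83.3% and 91.5% of peaks had a lower one. Peaks at such levels were not rare, since 14.1% of genes under 1 FPKM at flowering and 15.96% in leaves had a peak.

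DPW carried the strongest peaks of the 9, and their gene of origin is uncertain. In all 3 groups a 3′ UTR peak was listed 2 times at nearly the same place: at 3657118 to 3657598 and 3657131 to 3657580 on chromosome 3 at booting, with folds of 14.9 and 14.7. Folds were 11.3 and 11.6 at flowering and 16.1 and 15.7 in leaves, and the log10 p ran from -2320 to -1540. They were listed in leaves, where DPW was at 0.362 FPKM, as well as at booting, where it was at 90.8 FPKM. All lie in the last 1122 bases of DPW, which overlap LOC_Os03g07150 on the minus strand, described as a catalytic subunit of protein phosphatase 2A. That gene was at 62.4 ± 5.50 FPKM (SD, n = 3) at booting, 48.1 ± 3.54 FPKM at flowering and 23.9 ± 7.72 FPKM in leaves, and no peak was listed under its ID.

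The lists give no strand for a peak. In each list 1 of the DPW entries stood in a run of consecutive entries of chromosome 3 of which 99.8% were under plus-strand genes, and the other in a run with 6.47 to 6.83% under plus-strand genes. Such doubled entries under one gene ID were seen for 434, 434 and 444 genes in the booting, flowering and leaf lists, or 2.60 to 2.66% of genes with a peak. Of the 9 genes DPW alone overlapped another gene of the table. Whether reads of the phosphatase gene enter the FPKM of DPW is not known, as the strand setting of the quantification is not given in the sources used here; in leaves DPW read 0.362 FPKM beside 23.9 FPKM of its partner. Left out, DPW takes the count of the genes with a peak to 2, 2 and 1 of 8.

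**Figure D5:**
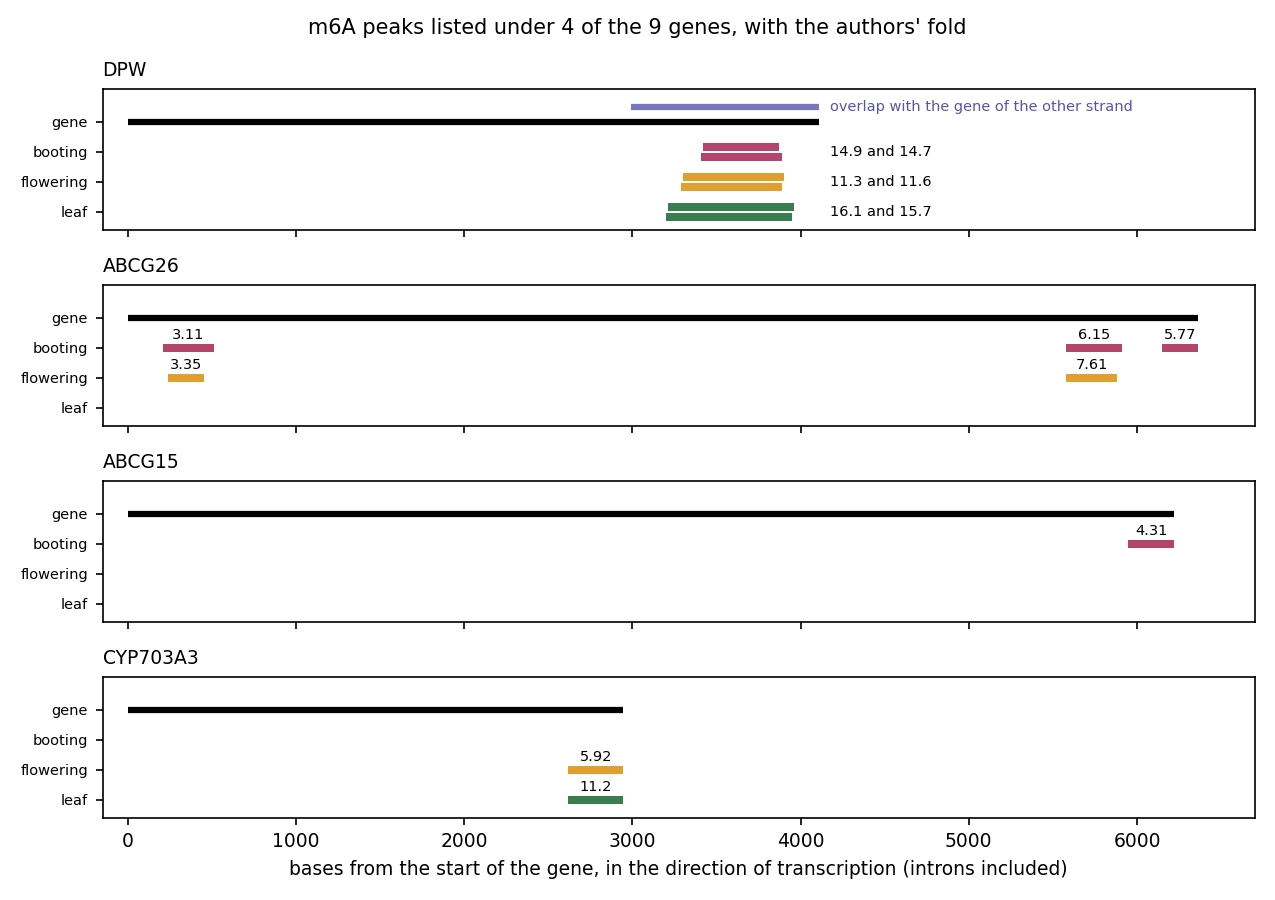
Peaks listed under DPW, ABCG26, ABCG15 and CYP703A3, drawn to scale along each gene (black) from its start, with the authors' fold; colours mark the group whose list holds the peak. DPW has 2 nearly coincident peaks in each list, all inside its overlap with a gene of the other strand, and the CYP703A3 peak is absent from the booting list.

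Peaks of the related lists differed in number. In the booting list 42.5% of all genes had a peak, as did 80.9% of genes at 10 FPKM or more. Of the tapetum regulators, 6 of 8 had a peak at booting, among them all 4 at 10 FPKM or more. Of the synthesis genes 2 of 8 had one, NP1 (LOC_Os10g38050) and CER1, with 7 of the 8 at 10 FPKM or more. NP1, a HOTHEAD-type oxidoreductase of exine formation, overlaps a phospholipase D gene (LOC_Os10g38060) on the other strand over its whole 3041 bases and had doubled entries like those of DPW. It was listed with peaks in leaves at 0.0185 FPKM. Of the other tapetal proteins 2 of 9 had a peak at booting, CAP1 and MTR1 (LOC_Os02g28970). The differences between these counts were not tested.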

How the data were processed

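The expression table holds FPKM, which the authors deposited for 9 input libraries; per the labels, cutadapt, HISAT2, StringTie, HOMER and ChIPseeker were used, on strand-specific (dUTP) libraries. Not given in the sources used here were versions, peak caller, genome build, annotation release and strand setting. The deposited peak lists, 1 per group, give per the file headers a fold (ratio of enriched to input), log10 p and FDR columns treated as scores, and a score equal to the p-value; these deposited p-values served only to describe and rank peaks.

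Genes were matched by ID. Genes had to reach 1 FPKM in at least 3 libraries, and log2(FPKM + 1) was fitted in limma 3.58.1 (R 4.3.3) with group means, a variance trend and Benjamini-Hochberg adjustment over 23355 genes. The fit was tested on simulated data. Of low values of 575 single-exon genes, 29.3 to 38.1% per library were whole fragments within 0.1 at the best read depth tried. The median over all depths tried was 17.3 to 19.7%, and 20% is expected by chance at a fixed depth. Reads were therefore not recovered and no count test was run. Same-numbered libraries were checked for pairing (residual correlations -0.189 to 0.118, 2 of 9 over 0.1) and not paired.

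The 9 genes and all lists were chosen with earlier results of these data known. Named genes are the 9, up to 4 per list with the highest mean FPKM in any group, and the 3 nearest genes of each; others were chosen after their values were seen. Alternatives were pseudocounts, filters, scalings, a replicate block, a fit of 2 groups, no variance trend, each library left out, and peak thresholds. No sequence is printed.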

Additional observations from a re-analysis of the deposited data

How the results depend on the processing

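The 9 genes kept their direction and call between the panicle stages and between booting panicles and leaves in 162 of 162 gene and setting combinations each (18 settings). Against leaves at flowering 148 of 157 did. A call was lost or gained in 4, named with DPW, CYP703A3 and TKPR1 in the results. The sign of an uncalled difference turned in 5: with quantile normalization for CYP704B2 (-0.67), CYP703A3 (-0.49), PKS1 (-0.67) and ACOS12 (-0.59), and without flag leaf replicate 1 for ABCG15, whose values with a library left out ran from -0.0707 to 0.0022; with the 2 groups fitted alone 5 of the 9 genes failed the filter. The replicate block gave 9, 9 and 3 called genes, as without it. Several of the 18 settings could not move a log2 change, only its p-value. These were the filters, the replicate block, no variance trend, the fit of 2 groups and a library left out of the group not compared. A pseudocount of 5 cut the calls over all genes to 4367 for flowering against booting, 7815 for booting against leaf and 5303 for flowering against leaf, from 7802, 12622 and 9930. Equal library sums moved the median of all genes from -0.09 to -0.21 for flowering against booting. At a log10 FDR of -5 or lower, which drops the CYP703A3 peaks, genes with a peak went from 3 to 2 at flowering and from 2 to 1 in leaves. At the authors' own threshold, leaving out DPW gave 1 in leaves. That alternative and the list and likeness values without booting replicate 2 were added after seeing the data. Low levels limit the flowering against leaf comparison, as does the unknown depth. An overlap by peak strand and a motif search were not run, since no peak strand or sequence was used here.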

Other observations

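The 35 genes that were low in booting replicate 2 were chosen by that measure, so what follows describes them and tests nothing. Besides 6 of the 9 genes they held PKS2, TKPR2 and the HOTHEAD-type gene LOC_Os02g45530. Of the 35, 29 were called lower at flowering than at booting, 1 higher and 5 were not called. Over all 23355 tested genes, 15.3% were called lower and 4226 were called higher. The genes picked by replicate 2 came only from the 6255 genes with a booting mean of at least 20 FPKM. The shares called among those 6255 are not given here. The calls include booting replicate 2, the library by which the genes were picked. Genes at 2 or more times the mean of the other booting libraries in replicate 2 numbered 25, of which 12 were called higher at flowering, 3 lower and 10 were not called. Among them were RTS and a putative DIR1-type lipid transfer protein (LOC_Os04g33930), at 53.4 FPKM in replicate 2 against 3.85 and 5.08 FPKM in replicates 1 and 3. Why replicate 2 differed was not tested.

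Genes that the table's own terms link to the exine, looked up after the values were seen, did not all follow the 9. Outside the 9 and the lists above there were 14, of which 9 were tested and 2 were called lower at flowering, beside 15.3% of all tested genes, with a median of -0.25. QRT3 (LOC_Os04g52320), described as a polygalacturonase, the type that separates microspores in Arabidopsis, went from 29.0 ± 9.35 FPKM (SD, n = 3) to 1.63 ± 0.132 FPKM. LOC_Os08g40440 went from 246 ± 93.9 to 1.32 ± 0.121 FPKM. The exine gene DEX1 (LOC_Os03g61050) was among the 7 without a call, at -0.52.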
